A study of Homo sapiens with 18 samples.

Results

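The replication-dependent histone genes encode the H1, H2A, H2B, H3 and H4 proteins that package newly made DNA. They were chosen by symbol: the genes named H1-1 to H1-6, and those named H2AC, H2BC, H3C or H4C with a number, without pseudogenes. The rule found 66 of the 28277 genes listed, and used no measured value. They were 6 H1, 16 H2A, 17 H2B, 13 H3 and 14 H4 genes, of which 55 lay in the HIST1 cluster on chromosome 6 and 11 in the HIST2 cluster on chromosome 1.

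The RNA came from OVCAR3-KRAB cells, made from OVCAR3, an established line of ovarian cancer cells. In the groups with an XIST guide, XIST, the long noncoding RNA of X chromosome inactivation, had been knocked down by CRISPR interference. All 6 groups were clonal cells that carried dCas9-KRAB, a Cas9 that does not cut fused to a repressor domain, brought in with a lentivirus under blasticidin selection, and a guide RNA vector with puromycin resistance. The guide was sgCtl (sgControl in the labels), a control against a Gal4 promoter, or sgXIST7 or sgXIST9, each against the XIST promoter. Each kind of cell was kept in normoxia, whose oxygen level the labels leave out, or for 24 h at 1% oxygen (hypoxia), with 3 libraries per group and 18 in all. Since the cells of each guide were clonal, an effect of XIST knockdown (KD) and a difference between clones cannot be told apart. The study calls its RNA sequencing replicates biological, 3 of them, and does not define the term. The labels do not say whether the 3 libraries of a group came from separate cultures. The p-values measure the spread between these libraries, and how separate they were is not given.

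Replication-dependent histone mRNAs are the messages of animal cells that lack a poly(A) tail. They end shortly after a stem-loop in the RNA, which is bound by the stem-loop binding protein SLBP and cut free with the help of the U7 snRNP. They are made and kept in S phase, when DNA is copied, and are destroyed quickly when DNA synthesis stops. Because they have no tail, they are lost from libraries made by poly(A) selection, and are seen in libraries made, as here, from total RNA after removal of ribosomal RNA.

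A stem-loop of 16 bases, a stem of 6 pairs around a loop of 4, was found in the genome sequence (hg38) at the end of 66 of the 66 genes. It is printed because it is the feature that sets these mRNAs apart, and 10 forms of it were found, with the stem and loop here in capitals and the flanks left off. The 4 forms that were found in more than 1 gene were these, each written 5′ to 3′ with T for U.
Carried by 38 of the genes: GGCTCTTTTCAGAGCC
Carried by 9 of the genes: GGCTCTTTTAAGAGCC
Carried by 9 of the genes: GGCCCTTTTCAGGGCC
Carried by 4 of the genes: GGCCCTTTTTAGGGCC
The first form was held by genes of the H1, H2A, H2B and H3 classes, the second mostly by H2B genes, and the last 2 by H4 genes only. The other 6 forms were held by 1 gene each. In those of H2AC11 and H2AC15, T stood opposite G at 1 position of the stem, in place of an A-T or G-C pair.

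With 5 bases on either side in lower case, the stem-loops of 6 genes that the results below turn on were as follows.
H1-3 at chr6:26234217-26234232 (minus strand): taaacGGCTCTTTTCAGAGCCaccca
H1-2 at chr6:26055744-26055759 (minus strand): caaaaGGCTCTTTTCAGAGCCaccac
H2BC8 at chr6:26216218-26216233 (minus strand): tcaaaGGCTCTTTTCAGAGCCactca
H4C4 at chr6:26188715-26188730 (minus strand): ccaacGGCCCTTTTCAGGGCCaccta
H2BC5 at chr6:26158587-26158602 (plus strand): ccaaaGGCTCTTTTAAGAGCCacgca
H2BC12 at chr6:27146366-27146381 (minus strand): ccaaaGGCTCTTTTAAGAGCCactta
For 62 genes the annotated end of the deposited gene model lay within 60 bases of the stem-loop. For the other 4, all H2B genes, the model ran on past it: by 1728 bases for H2BC21, 12746 for H2BC5, 8073 for H2BC12 and 29196 for H2BC18, introns included. The counts of these 4 entries can hold both the short message and a longer one.

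The promoters are printed for the genes that stood out between clones or in hypoxia, as the 120 bases before the RefSeq start site (GRCh38.p14). Capitals mark TATAAA on the gene's strand, CCAAT on either strand, and the octamer ATTTGCAT on either strand, none of which overlap here. H2BC8 and H2AC8 are head to head, with 275 bases between their starts in the deposited gene models. The RefSeq starts used here lie closer together, and the 2 printed sequences share 8 bases. Of 55 histone genes compared, 17 had a deposited start within 5 bases of the RefSeq start, so the printed stretch can be offset from the counted gene model.
H2BC8 at chr6:26216689-26216808 (minus strand): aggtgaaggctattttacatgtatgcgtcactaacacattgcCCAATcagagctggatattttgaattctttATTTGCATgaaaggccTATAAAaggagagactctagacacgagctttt
H2AC8 at chr6:26216801-26216920 (plus strand): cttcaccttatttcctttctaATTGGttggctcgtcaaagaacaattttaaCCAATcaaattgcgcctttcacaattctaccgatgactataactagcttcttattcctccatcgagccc
H2BC6 at chr6:26183641-26183760 (plus strand): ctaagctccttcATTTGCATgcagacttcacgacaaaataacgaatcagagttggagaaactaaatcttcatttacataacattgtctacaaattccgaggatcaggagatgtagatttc
H1-3 at chr6:26234988-26235107 (minus strand): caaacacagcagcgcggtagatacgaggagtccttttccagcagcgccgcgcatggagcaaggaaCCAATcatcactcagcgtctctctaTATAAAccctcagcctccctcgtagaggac
H1-2 at chr6:26056471-26056590 (minus strand): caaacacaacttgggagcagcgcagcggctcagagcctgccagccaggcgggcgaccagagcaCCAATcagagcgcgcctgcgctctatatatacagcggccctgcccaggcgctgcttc
H4C4 at chr6:26189113-26189232 (minus strand): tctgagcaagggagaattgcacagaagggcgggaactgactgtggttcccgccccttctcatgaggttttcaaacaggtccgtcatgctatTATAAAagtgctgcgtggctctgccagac
Over the 250 bases before the start, TATAAA was found in 59% of the 61 histone genes with a promoter sequence and in 7.17% of the 27305 promoters of all genes. CCAAT was found in 85.2% against 33%, in every H1, H2A, H2B and H3 promoter and in 25% of the H4 promoters. The octamer, the binding sequence of POU2F1 (OCT1), was found in 42.6% against 1.66%, in 82.4% of the H2B and 73.3% of the H2A promoters and in 0 of the 6 H1 promoters. The core of the hypoxia response element, ACGTG, was found in 13.1% against 18.7%, and the E2F sequence TTGGCGC in 0% against 2.63%. These are counts of letters in a window and say nothing of binding.

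The libraries held between 11794375 and 24906936 counts on genes. Levels are given as CPM, counts scaled to a library of fixed size after a correction by the trimmed mean of M values (TMM). XIST was at 329, 867 and 242 CPM in sgCtl in normoxia and at 123.4, 248.8 and 141 CPM in hypoxia. It was at no more than 0.222 CPM in any sgXIST7 library, and between 16.3 and 53.6 CPM in sgXIST9, so the labels of the guides held. Of 10 genes fixed as a check of the hypoxia treatment, 8, 9 and 9 were called higher in hypoxia in sgCtl, sgXIST7 and sgXIST9. Of 12 markers of ovarian epithelial tumour cells, 5 had enough counts for the test: EPCAM and KRT18 were high, with 192 and 168 CPM in sgCtl in normoxia, PAX8 was at 1.51 CPM, and CDH1, SOX17 and MUC16 were at or near 0 in every group. Of 9 markers of immune, stromal and endothelial cells, 3 were tested (CD68, COL1A1 and DCN), and PTPRC, CD3E and CDH5 were at or near 0. Summed over the 9, the level in normoxia was 27.8, 32.3 and 49.1 CPM in sgCtl, sgXIST7 and sgXIST9, above that of PAX8. Over the 12 epithelial markers it was 371, 372 and 443 CPM.

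Of the 66 histone genes, 46 had enough counts to be tested among 14938 genes: 5 H1, 12 H2A, 15 H2B, 7 H3 and 7 H4 genes. The 20 others were left out. They were H1-1, H2AC1, H2AC16, H2AC18, H2AC19, H2BC1, H2BC10, H3C1, H3C3, H3C8, H3C11, H3C14, H3C15, H4C1, H4C6, H4C7, H4C9, H4C13, H4C14 and H4C15. Of these, 6 (H2AC18, H2AC19, H3C14, H3C15, H4C14 and H4C15) are each listed with both loci of an identical pair and had 0 counts in every library, so that their RNA cannot be seen in these counts. The other 14 had at most 14 counts in any library although at least 96.7% of their 50-base windows were unique in the genome. They included H2AC1 and H2BC1, which are known as histone genes of the testis. Near-identical copies also limit 10 of the genes tested, in which under 80% of the 50-base windows were unique: H2AC13, H2AC14, H2AC20, H2BC6, H2BC12, H2BC15, H2BC18, H3C13, H4C11 and H4C12. H2AC7 lies wholly inside the entry of H3C4 on the same strand, so its 1.16 CPM in sgCtl in normoxia and the level of H3C4 are uncertain.

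Per kilobase of exon, the 8 genes with the highest mean level over the 18 libraries were H1-2, H3C2, H4C3, H1-4, H3C10, H4C5, H2BC4 and H2BC12, and every class but H2A was among them. In sgCtl in normoxia, H1-4 led with 1002 ± 23.8 CPM per kb (SD, n = 3), followed by H3C2 with 988 ± 76.9, H4C3 with 809 ± 94.9 and H1-2 with 732 ± 49.8. H3C2 and H1-4 did not differ by more than these spreads, and neither did H4C3 and H1-2. Below them stood H4C5 with 683 ± 53.1, H2BC4 with 652 ± 65.4, H3C10 with 609.8 ± 63.6 and H2BC12 with 550.0 ± 26.2 CPM per kb. H2AC11, the highest H2A gene, had 673 ± 69.4. The order was another in hypoxia: in sgCtl, H1-2 led with 316 ± 54.5 CPM per kb and H2BC12 was next with 285 ± 99.1, while H1-4 had 148 ± 48.9.

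**Figure D1:**
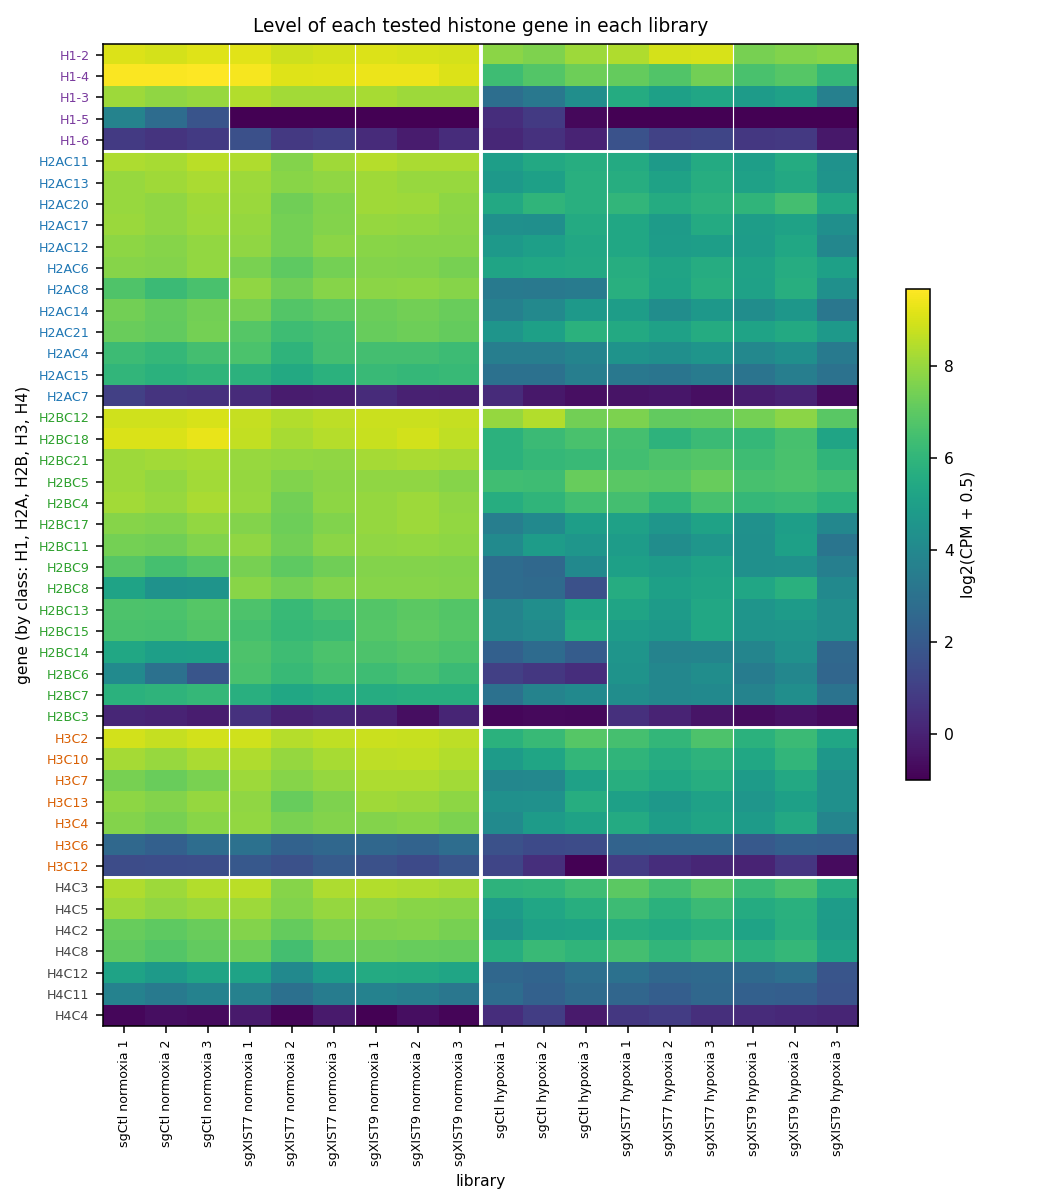
Level of the 46 tested histone genes (rows, by class and by mean level) in the 18 libraries (columns), as log2(CPM + 0.5). Most rows are bright in the 9 normoxia libraries and dark in the 9 hypoxia libraries, H1-5 is dark in every KD library, and H2BC6, H2BC8, H2BC14 and H2AC8 are darker in sgCtl than in the KD clones.

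The first comparison was of hypoxia with normoxia within each guide. The histone genes fell together: of the 46 tested, 41 were called lower in sgCtl, 36 in sgXIST7 and 40 in sgXIST9, and 35 were called lower in all 3. Among all genes tested, 8.49%, 12.2% and 8.58% were called lower. A gene was called when edgeR's quasi-likelihood test gave an adjusted p under 0.01 over all genes and a log2 fold change beyond 1 in size. The median log2 fold change over the histone genes was -2.54, -1.93 and -2.49, against 0.02, 0.01 and 0.09 over all genes. H4C4 was the 1 histone gene called higher, in each of the 3 comparisons, where 11.3%, 15.1% and 14.7% of all genes were called higher. Among the 39 histone genes with a mean of at least 100 counts per library, 38, 36 and 39 were called lower, and the fold change was below 0 in 39 of 39 in each guide. For each gene called lower, the 3 hypoxia libraries lay below the 3 normoxia libraries without overlap. This is no separate evidence, since these genes were picked by the size of their fall, and the same share over all genes is not given.

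Summed over the 66 genes, the level in normoxia was 8757, 8021 and 9309 CPM in sgCtl, 9378, 6879.9 and 8198 CPM in sgXIST7 and 9438, 9469 and 8616 CPM in sgXIST9. In hypoxia it was 1449.6, 1765 and 2144 CPM in sgCtl, 2462, 2123 and 2619 CPM in sgXIST7 and 1704, 2181 and 1253 CPM in sgXIST9. The 9 hypoxia libraries thus lay far below the 9 normoxia libraries. The mean in hypoxia was 20.5% ± 4.001 of that in normoxia in sgCtl, 29.5% ± 3.11 in sgXIST7 and 18.7% ± 5.06 in sgXIST9 (SD of the 3 hypoxia libraries). As a share of all counts, the histone genes took 0.915% in sgCtl in normoxia and 0.177% in hypoxia. In bulk RNA, fewer cells in S phase and less histone mRNA in each such cell cannot be told apart.

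By class, H2A and H3 were left with the smallest shares: in sgCtl, the summed H2A level in hypoxia was 14.99% ± 3.66 of normoxia and the H3 level 15.2% ± 6.24, while H1 kept 22.7% ± 4.85, H4 23.8% ± 4.17 and H2B 25.2% ± 3.56. These spreads overlap for most pairs of classes. In sgXIST9 the order was alike at the low end, with H3 at 11.9% ± 4.56 and H2A at 15.4% ± 5.22. In sgXIST7, H1 kept the most, 43.98% ± 7.07, and H3 the least, 19.4% ± 3.04. All tested genes of the HIST2 cluster, 5 of 5 (H2AC20, H2AC21, H2BC18, H2BC21 and H3C13), were called lower in each guide, and of the 41 tested in the HIST1 cluster 36, 31 and 35 were called lower. The summed level left in sgCtl was 21.1% ± 3.92 of normoxia for HIST1 and 17.7% ± 4.38 for HIST2.

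**Figure D2:**
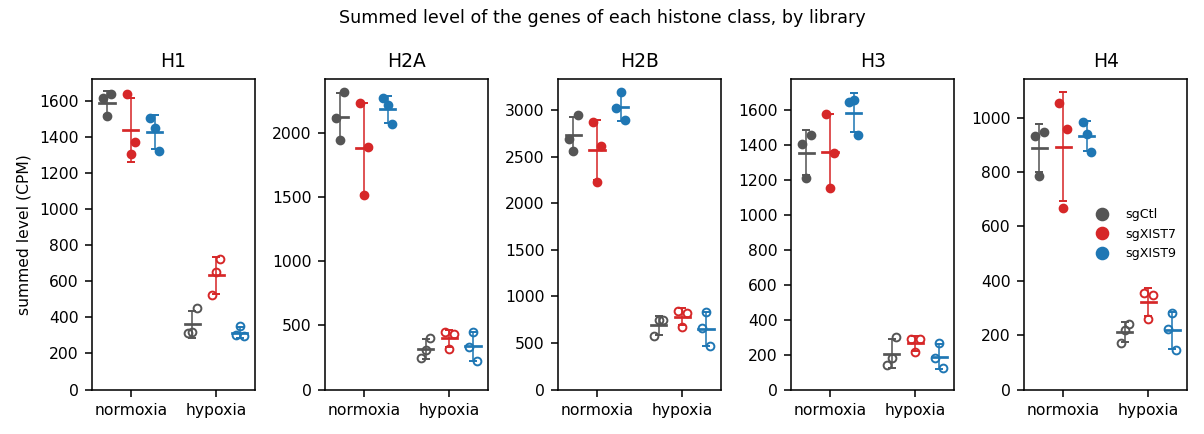
Summed CPM of the genes of each histone class in each library (points; filled, normoxia; open, hypoxia), with the mean (line) and SD (bar) of the 3 libraries of each guide. In each class the hypoxia points lie below all normoxia points, and the H1 sum is higher in sgXIST7 (633 ± 102 CPM) than in sgCtl (361 ± 76.96 CPM) in hypoxia.

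The H1 linker histones bind DNA where it enters and leaves the nucleosome, and differed among themselves. In normoxia, H1-3 was at 271, 239 and 262 CPM in sgCtl, 343, 286 and 287 CPM in sgXIST7 and 307, 277 and 274 CPM in sgXIST9. In hypoxia, H1-3 was at 6.69, 9.23 and 18.96 CPM in sgCtl, 46.8, 33.2 and 38.9 CPM in sgXIST7 and 28.3, 34.04 and 12.1 CPM in sgXIST9. These 9 hypoxia libraries lay below every normoxia library, and H1-3 had the largest fall of all histone genes in sgCtl. Its log2 fold change was -4.49 ± 0.36 (SE, adjusted p = 4.3e-08) in sgCtl, -2.94 ± 0.32 (SE, adjusted p = 8.2e-07) in sgXIST7 and -3.52 ± 0.33 (SE, adjusted p = 2e-07) in sgXIST9. An exact two-sided permutation test of 3 libraries against 3 cannot go below p = 0.1, and gave 0.1 for H1-3 in each guide. In normoxia, H1-4 was at 777, 774 and 808 CPM in sgCtl, 721, 566 and 575 CPM in sgXIST7 and 651, 656 and 545 CPM in sgXIST9. In hypoxia, H1-4 was at 80.3, 113 and 157 CPM in sgCtl, 139.7, 109.7 and 168 CPM in sgXIST7 and 96.4, 113 and 68.4 CPM in sgXIST9. H1-4, the highest histone gene by CPM in normoxia, fell in each guide, with a log2 fold change of -2.76, -2.16 and -2.74 in sgCtl, sgXIST7 and sgXIST9.

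H1-2, the gene with the highest mean level per kilobase, fell less. In normoxia, H1-2 was at 551, 495 and 563 CPM in sgCtl, 572, 454 and 508 CPM in sgXIST7 and 549, 516 and 502 CPM in sgXIST9. In hypoxia, H1-2 was at 226, 194 and 273 CPM in sgCtl, 334, 506 and 516 CPM in sgXIST7 and 178, 201 and 214 CPM in sgXIST9. The sgXIST7 libraries in hypoxia were the highest of the 3 guides, with no overlap with sgCtl, and reached into the range of normoxia. The log2 fold change was -1.21 ± 0.16 (SE, adjusted p = 7.8e-06) in sgCtl, -0.18 ± 0.15 (SE, adjusted p = 0.33) in sgXIST7 and -1.40 ± 0.16 (SE, adjusted p = 1.3e-06) in sgXIST9, so that H1-2 was called lower in sgCtl and sgXIST9 and not in sgXIST7. H1-6, the testis H1, was barely seen: it was at 1.27, 1.01 and 1.26 CPM in sgCtl in normoxia and at 0.625, 0.943 and 0.532 CPM in hypoxia, and was not called in hypoxia in any guide. In the KD clones it was at 2.51, 1.22 and 1.48 CPM in sgXIST7 and 0.759, 0.372 and 0.759 CPM in sgXIST9 in normoxia, and at 2.72, 1.68 and 1.81 and 1.14, 1.23 and 0.316 CPM in hypoxia.

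Most H2A and H2B genes, whose proteins form a dimer, lie in head-to-head pairs. In normoxia, H2BC17 was at 213, 201 and 243 CPM in sgCtl, 207, 159 and 198 CPM in sgXIST7 and 254, 273 and 244 CPM in sgXIST9. In hypoxia, H2BC17 was at 11.3, 15.98 and 30.8 CPM in sgCtl, 33.5, 23.6 and 35.1 CPM in sgXIST7 and 20.7, 31.2 and 14.8 CPM in sgXIST9. Its log2 fold change was -3.52, -2.62 and -3.53 in sgCtl, sgXIST7 and sgXIST9, and that of its partner H2AC17 was -3.20, -2.47 and -3.09. In normoxia, H2BC11 was at 171, 165 and 198 CPM in sgCtl, 234, 168 and 225 CPM in sgXIST7 and 239, 246 and 228 CPM in sgXIST9. In hypoxia, H2BC11 was at 16.8, 29.5 and 24.1 CPM in sgCtl, 29.0001, 18.4 and 24.1 CPM in sgXIST7 and 19.8, 32.9 and 8.39 CPM in sgXIST9. H2BC11 had the largest fall of any histone gene in sgXIST7, and its values were -2.92, -3.14 and -3.53. The partner H2AC11 is among the most abundant H2A genes. In normoxia, H2AC11 was at 329, 304 and 372 CPM in sgCtl, 337, 206 and 280.4 CPM in sgXIST7 and 352, 320.4 and 320.5 CPM in sgXIST9. In hypoxia, H2AC11 was at 30.6, 42.4 and 48.8 CPM in sgCtl, 45.3, 27.8 and 44.98 CPM in sgXIST7 and 30.9, 47.1 and 21.3 CPM in sgXIST9. Its log2 fold change was -3.05, -2.80 and -3.32, with every hypoxia library below every normoxia library.

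H2AC12 lies near H2AC11 on chromosome 6 and head to head with H2BC12, which fell less in each guide (values below). In normoxia, H2AC12 was at 232, 211 and 245 CPM in sgCtl, 236, 174 and 223 CPM in sgXIST7 and 218, 212 and 209 CPM in sgXIST9. In hypoxia, H2AC12 was at 26.7, 32.01 and 41.7 CPM in sgCtl, 40.1, 28.9 and 30.8 CPM in sgXIST7 and 28.9, 40.5 and 14.7 CPM in sgXIST9. The log2 fold change was -2.78, -2.66 and -2.92 in sgCtl, sgXIST7 and sgXIST9. H2BC4 and its partner H2AC6 lie at the other end of the cluster. In normoxia, H2BC4 was at 287, 257 and 314 CPM in sgCtl, 261, 166 and 228 CPM in sgXIST7 and 248, 269.5 and 236 CPM in sgXIST9. In hypoxia, H2BC4 was at 49.2, 61.9 and 85.6 CPM in sgCtl, 87.7, 61.2 and 93.7 CPM in sgXIST7 and 68.7, 74.8 and 54.7 CPM in sgXIST9. The values were -2.13, -1.43 and -1.92 for H2BC4 and -2.48, -1.85 and -2.34 for H2AC6, all called lower.

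The 4 H2B entries whose gene models run past the stem-loop did not behave as 1 group. H2BC18 fell by as much as short genes, with -2.87, -2.26 and -2.72, although only 21.2% of its windows were unique. H2BC21 changed by -2.12, -1.29 and -1.93. H2BC5 changed by -1.40, -0.80 and -1.32 and was not called in sgXIST7. In normoxia, H2BC12 was at 472, 477 and 514 CPM in sgCtl, 416, 346 and 381 CPM in sgXIST7 and 444, 449 and 423 CPM in sgXIST9. In hypoxia, H2BC12 was at 249.9, 342 and 167 CPM in sgCtl, 188, 138 and 141 CPM in sgXIST7 and 170.1, 222 and 122 CPM in sgXIST9. H2BC12 thus kept more than most, most of all in sgCtl, where its log2 fold change of -0.95 ± 0.22 (SE, adjusted p = 0.0017) was under the threshold of 1. In sgXIST7 and sgXIST9 it was -1.29 and -1.36, both called. The median over the 4 was -1.76, -1.29 and -1.64, against -2.63, -2.04 and -2.52 over the 42 other tested genes.

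The H3 genes encode a core histone and fell as a group, 6, 5 and 6 of the 7 tested being called lower. In sgXIST9 these included H3C12, with 58, 40 and 51 counts in normoxia and 12, 24 and 2 in hypoxia. That call was lost in 17 alternatives. In normoxia, H3C2 was at 487, 425 and 488 CPM in sgCtl, 479, 351 and 394 CPM in sgXIST7 and 441, 436 and 389 CPM in sgXIST9. In hypoxia, H3C2 was at 56.1, 72.8 and 115 CPM in sgCtl, 90.2, 66.9 and 103 CPM in sgXIST7 and 55.01, 76.9 and 39.003 CPM in sgXIST9. For H3C2, the most abundant of them, the log2 fold change was -2.52, -2.24 and -2.89. In normoxia, H3C10 was at 297, 255 and 313 CPM in sgCtl, 338, 253 and 305 CPM in sgXIST7 and 386, 403 and 348 CPM in sgXIST9. In hypoxia, H3C10 was at 27.9, 38.1 and 66.6 CPM in sgCtl, 62.1, 47.9 and 58.5 CPM in sgXIST7 and 40.7, 64.3 and 24.2 CPM in sgXIST9. H3C10 changed by -2.71, -2.41 and -3.14, and no hypoxia library of either gene reached a normoxia library. In normoxia, H3C13 was at 231, 202 and 248 CPM in sgCtl, 237, 144 and 191 CPM in sgXIST7 and 284, 267 and 233 CPM in sgXIST9. In hypoxia, H3C13 was at 20.002, 20.4 and 49.7 CPM in sgCtl, 32.8, 25.4 and 34.2 CPM in sgXIST7 and 23.6, 32.5 and 19.7 CPM in sgXIST9. H3C13, with 28.7% of windows unique, changed by -2.93, -2.63 and -3.37. H3C6 was low, at 5.39 ± 1.09 CPM in sgCtl in normoxia, and was called lower in sgCtl (-1.20) and not in sgXIST7 (-0.24) or sgXIST9 (-0.51).

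The H4 genes tested all encode the same protein. In normoxia, H4C3 was at 331, 273 and 342 CPM in sgCtl, 373, 213 and 326 CPM in sgXIST7 and 339.8, 327 and 300.3 CPM in sgXIST9. In hypoxia, H4C3 was at 58.6, 62.1 and 80.5 CPM in sgCtl, 124, 84.8 and 122 CPM in sgXIST7 and 73.02, 96.3 and 48.3 CPM in sgXIST9. H4C3, the most abundant, changed by -2.24, -1.46 and -2.15. In normoxia, H4C5 was at 272, 235 and 267 CPM in sgCtl, 270.5, 201 and 248.7 CPM in sgXIST7 and 238, 218 and 210.3 CPM in sgXIST9. In hypoxia, H4C5 was at 28.1, 39.6 and 51.6 CPM in sgCtl, 77.9, 55.9 and 77.3 CPM in sgXIST7 and 47.2, 54.2 and 29.3 CPM in sgXIST9. H4C5 changed by -2.70, -1.77 and -2.35, and both genes were called lower in each guide. H4C8 kept more: it was at 134, 110.3 and 137 CPM in sgCtl in normoxia and 49.005, 74.04 and 62.1 CPM in hypoxia, with log2 fold changes of -1.04, -0.73 and -1.45, the value in sgXIST7 not called. The call in sgCtl was lost without sgCtl normoxia library 3 or hypoxia library 1.

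H4C4, the 1 gene called higher in hypoxia, rests on few reads. In sgCtl its counts were 1, 2 and 2 in normoxia and 13, 28 and 4 in hypoxia. They were 8, 1 and 8 in normoxia and 24, 30 and 10 in hypoxia in sgXIST7, and 0, 3 and 1 and 16, 15 and 9 in sgXIST9. Within each guide the CPM values of the 2 conditions did not overlap. Against 3 counts per library, the floor used for groups that had no more than that, its level in hypoxia was at least 4.22-fold higher in both sgCtl and sgXIST9, and the fitted log2 fold change in sgXIST7 was 2.11 ± 0.54 (SE, adjusted p = 0.003). The call was lost in sgCtl without sgCtl normoxia library 1 or 3 or hypoxia library 2, and in sgXIST7 without library 2 of either condition, and with a minimum mean of 1 CPM the gene was not tested.

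**Figure D3:**
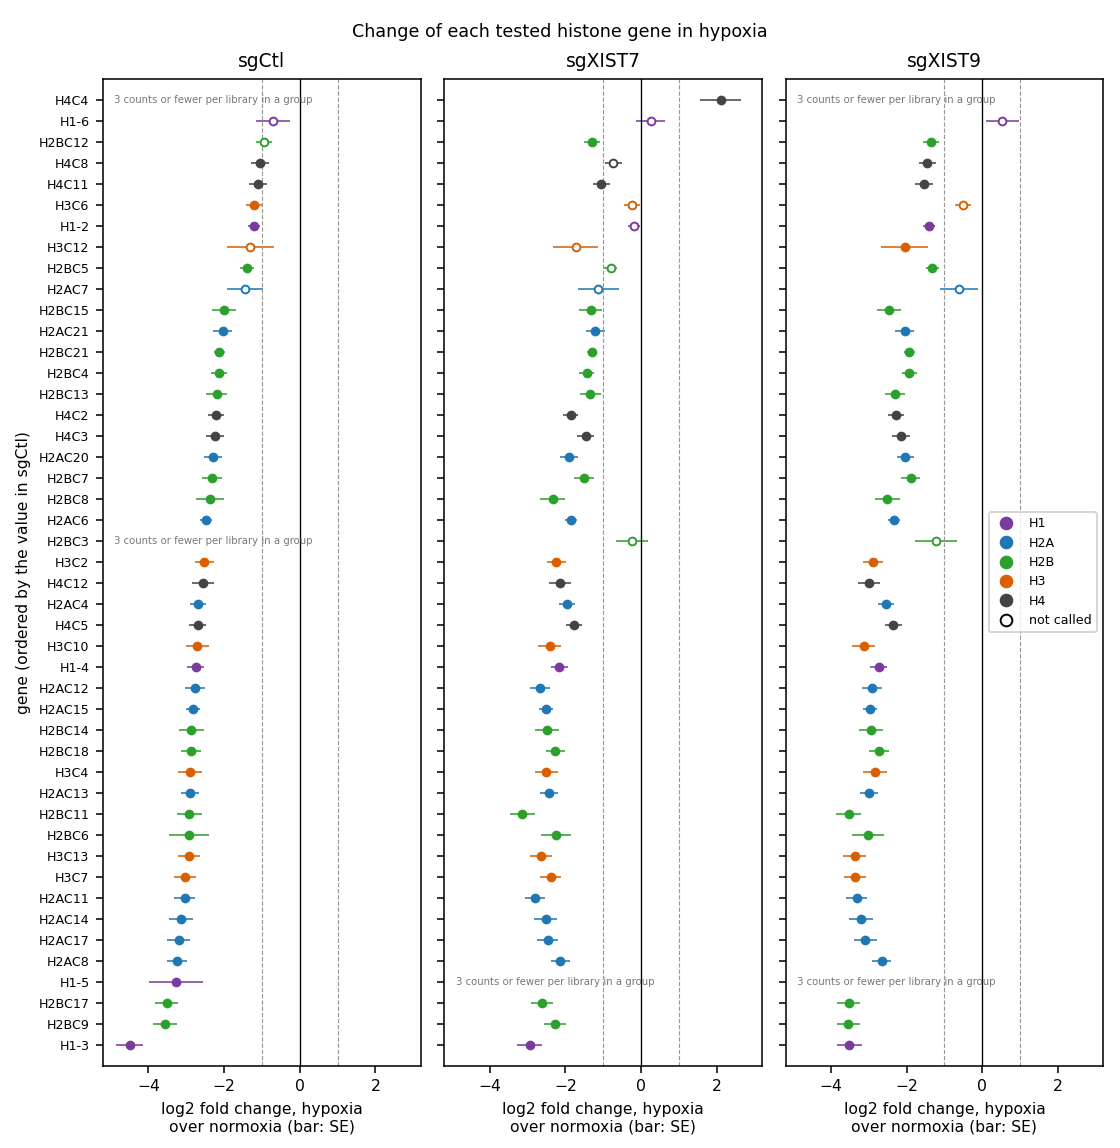
Log2 fold change in hypoxia over normoxia of each tested histone gene (rows, ordered by the value in sgCtl) in the 3 guides, with SE bars; filled points were called at an adjusted p under 0.01 and beyond the dashed lines at 1 and -1. Nearly all points lie to the left of 0, H1-3 is the lowest in sgCtl (-4.49), and H1-2, H2BC5, H4C8 and H2BC12 lie near the upper end of the genes with many counts.

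Set beside the sequences above, the 28 tested genes with the commonest stem-loop, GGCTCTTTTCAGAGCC, had a median log2 fold change of -2.82, -2.26 and -2.78 in sgCtl, sgXIST7 and sgXIST9. The 7 with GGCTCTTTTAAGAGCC had -2.03, -1.29 and -1.90, and the 6 with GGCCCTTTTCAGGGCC, all H4 genes, had -1.67, -1.26 and -1.85. The 22 tested genes with an octamer in the promoter had -2.78, -2.19 and -2.60, and the 21 with a promoter and no octamer had -2.52, -1.77 and -2.35. These groups share class and cluster with the stem-loop form, and are given as descriptions with no test. The 36 tested genes with at least 80% unique windows had medians of -2.52, -1.86 and -2.34 and the 10 others -2.71, -2.20 and -2.85. Of the first, 32, 26 and 30 were called lower in sgCtl, sgXIST7 and sgXIST9, and of the second 9, 10 and 10.

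The second comparison was of each KD clone with sgCtl in normoxia. Most histone genes showed no call: of the 46 tested, 4 were called higher and 1 lower in sgXIST7, where 4.67% and 3.09% of all genes were called higher and lower. In sgXIST9, 4 were called higher and 1 lower, beside 3.93% and 3.77% of all genes. In both comparisons, which share the sgCtl libraries, the genes called higher were H2BC6, H2BC8, H2BC14 and H2AC8, and the gene called lower was H1-5. The median over the 46 was -0.19 and 0.02.

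H2BC6 (chr6:26183796-26184230, plus strand), H2BC8 (chr6:26216201-26216644, minus strand) and H2AC8 (chr6:26216920-26217483, plus strand) are near neighbours, and H2BC14 (chr6:27815044-27815489, plus strand) lies farther along chromosome 6. In normoxia, H2BC6 was at 16.8, 7.35 and 2.99 CPM in sgCtl, 96.2, 71.3 and 91.5 CPM in sgXIST7 and 81.01, 93.7 and 77.4 CPM in sgXIST9. In the same libraries, H2BC8 was at 35.7, 21.2 and 22.5 CPM in sgCtl, 215, 173 and 207 CPM in sgXIST7 and 209, 210.3 and 205 CPM in sgXIST9. Every KD library lay several-fold above every sgCtl library for both. The log2 fold change of H2BC6 was 3.26 ± 0.43 (SE, adjusted p = 2.4e-05) in sgXIST7 and 3.23 ± 0.43 (SE, adjusted p = 2.6e-05) in sgXIST9. That of H2BC8 was 2.91 ± 0.34 (SE, adjusted p = 6.1e-06) and 2.98 ± 0.34 (SE, adjusted p = 4.4e-06). H2AC8 starts from the same stretch of DNA as H2BC8, on the other strand. In normoxia, H2AC8 was at 106, 75.6 and 95.8 CPM in sgCtl, 236, 163 and 209 CPM in sgXIST7 and 224, 233 and 209 CPM in sgXIST9. In normoxia, H2BC14 was at 40.6, 31.9 and 33.3 CPM in sgCtl, 102, 80.1 and 97.9 CPM in sgXIST7 and 101, 112 and 98.9 CPM in sgXIST9. H2AC8 rose by 1.13 ± 0.24 (SE, adjusted p = 0.0022) and 1.26 ± 0.24 (SE, adjusted p = 0.00093) on the log2 scale, and H2BC14 by 1.403 ± 0.30 (SE, adjusted p = 0.0024) and 1.56 ± 0.30 (SE, adjusted p = 0.001). The calls of H2AC8 and H2BC14 in sgXIST7 were lost without sgCtl normoxia library 2 or 3 or sgXIST7 normoxia library 1. Of H2BC6, 76.2% of the windows were unique, and of the other 3 all were.

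The genes that lie between and beside these were not called. In order along the chromosome, H2BC6 is followed by H4C4, H3C4, H2AC7, H2BC7 and H4C5 before H2BC8. H3C4 had log2 fold changes of 0.09 in sgXIST7 and 0.04 in sgXIST9, H2BC7 -0.40 and -0.30, and H4C5 -0.10 and -0.21. Past H2AC8, H3C6 and H1-3 stood at 0.10 and 0.25 in sgXIST7 and at 0.04 and 0.15 in sgXIST9. The pair H3C7 and H2BC9, next in line, had 0.54 and 0.54 in sgXIST7 and 0.88 and 0.93 in sgXIST9, none called. Beside H2BC14 lies H2AC14, on the other strand, with 27.4% of its windows unique. In normoxia it was at 159 ± 15.6 CPM (SD) in sgCtl, 140 ± 33.2 in sgXIST7 and 157 ± 10.9 in sgXIST9, not called.

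H1-5 (chr6:27866792-27867581, minus strand) was seen in sgCtl only. Its counts in sgCtl were 198, 81 and 51 (13.3, 6.27 and 2.93 CPM) in normoxia, a wide spread, and 13, 25 and 1 (0.813, 1.24 and 0.0886 CPM) in hypoxia. It had 0 counts in all 12 libraries of the KD clones. Against 3 counts per library, its normoxia level was lower in sgXIST7 by at least 52.6-fold, and at least 47.98-fold lower in the sgXIST9 clone (edgeR adjusted p = 0.0005 and 0.00056). Without sgCtl normoxia library 1 the bounds were 32.3-fold and 29.4-fold. The other genes beside it, H2AC16, H3C11 and H4C13, had at most 2 counts in any library. H1-5 fell within sgCtl in hypoxia, by -3.27 ± 0.72 (SE, adjusted p = 0.0043), a call that was lost with no filter on counts, by DESeq2, without the hypoxia libraries 3 together, and without sgCtl normoxia library 1 or 2 or hypoxia library 1.

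The same comparison was made in hypoxia. In sgXIST7, 10 of the 46 were called higher and 0 lower, beside 7.83% and 6.19% of all genes. In sgXIST9, 4 were called higher and 0 lower, beside 6.14% and 3.39%. At an unadjusted p under 0.05, in either direction, 20 and 10 genes passed, where 50.9% and 40.2% of all genes did. DESeq2 called 10 and 5 higher, beside 7.47% and 5.64% of all genes, and 0 lower, beside 5.94% and 3.6%. H2BC6, H2BC8, H2AC8 and H2BC14 were called in both clones. In hypoxia, H2BC8 was at 6.31, 5.95 and 2.66 CPM in sgCtl, 47.3, 33.2 and 36.9 CPM in sgXIST7 and 38.8, 54.5 and 16.3 CPM in sgXIST9. In hypoxia, H2BC6 was at 1.5001, 1.14 and 0.797 CPM in sgCtl, 21.6, 14.6 and 18.04 CPM in sgXIST7 and 10.5, 14.98 and 5.301 CPM in sgXIST9. The 2 genes fell in hypoxia within each guide, and the KD clones stayed above sgCtl: the gap was 2.94 ± 0.36 (SE, adjusted p = 9.2e-06) and 2.84 ± 0.36 (SE, adjusted p = 1.5e-05) on the log2 scale for H2BC8, and 3.94 ± 0.52 (SE, adjusted p = 2.1e-05) and 3.14 ± 0.53 (SE, adjusted p = 0.00026) for H2BC6. In hypoxia, H2AC8 was at 9.75, 9.38 and 10.2 CPM in sgCtl, 52.3, 36.2 and 50.3 CPM in sgXIST7 and 33.9, 51.5 and 19.6 CPM in sgXIST9. In hypoxia, H2BC14 was at 4.31, 6.15 and 3.81 CPM in sgCtl, 22.8, 13.05 and 13.6 CPM in sgXIST7 and 13.9, 20.5 and 5.62 CPM in sgXIST9. For these the gap was 2.24 and 1.85, and 1.77 and 1.48.

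The 6 genes called in sgXIST7 alone were H1-3, H1-6, H2BC3, H2BC9, H3C6 and H3C7. That sgXIST9 gave no call for them does not show that the clones differed. H1-3 was at 1.80 ± 0.33 (SE, adjusted p = 0.00039) in sgXIST7 and 1.13 ± 0.33 (SE, adjusted p = 0.015) in sgXIST9. In normoxia, H2BC9 was at 119, 90.7 and 111 CPM in sgCtl, 178, 131 and 161 CPM in sgXIST7 and 208, 207 and 199 CPM in sgXIST9. In hypoxia, H2BC9 was at 6.25, 5.56 and 16.3 CPM in sgCtl, 33.1, 28.4 and 35.1 CPM in sgXIST7 and 19.96, 20.8 and 11.5 CPM in sgXIST9. The sgXIST7 libraries lay above every sgCtl library in hypoxia, and the sgXIST9 libraries overlapped with them. H2BC9 was thus 1.82 and 0.95 from sgCtl in hypoxia on the log2 scale, and its response to hypoxia was -3.56, -2.28 and -3.54 in sgCtl, sgXIST7 and sgXIST9. H2BC3 is near the floor: in hypoxia it had 1, 2 and 1 counts in sgCtl, 19, 12 and 3 in sgXIST7 and 3, 5 and 2 in sgXIST9. In normoxia its counts were 9, 7 and 7, 22, 9 and 15 and 10, 3 and 10. The number called in hypoxia turned on single libraries. The H1-6 call was lost in 14 of 26 alternatives. The calls of H2BC3, H3C6 and H3C7 were lost without sgCtl hypoxia library 2, those of H2BC3 and H3C7 also without sgCtl hypoxia library 1, that of H2BC3 without sgXIST7 hypoxia library 1 and that of H3C7 without sgXIST7 hypoxia library 3. The H2BC14 call in sgXIST9 was lost in 6, among them without any 1 of sgCtl hypoxia libraries 1 and 3 and sgXIST9 hypoxia libraries 1 and 2. It was 5 in sgXIST7 and 2 in sgXIST9 when only the groups compared were fitted, 6 in sgXIST7 without sgCtl hypoxia library 2, 14 and 6 without sgCtl hypoxia library 3, and 13 and 7 without the hypoxia libraries 3.

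**Figure D4:**
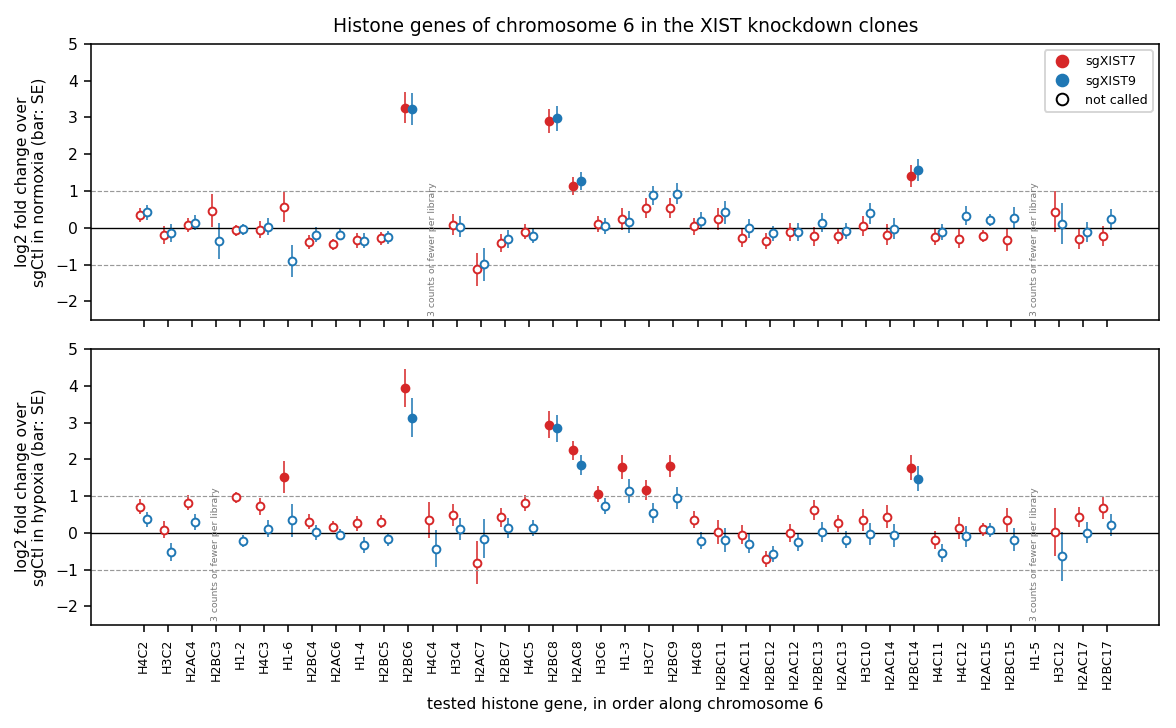
Log2 fold change of sgXIST7 and sgXIST9 over sgCtl for the tested histone genes of chromosome 6 in their order along it, in normoxia (top) and hypoxia (bottom), with SE bars; filled points were called, and genes with no more than 3 counts per library in a group are written out. H2BC6, H2BC8, H2AC8 and H2BC14 stand above their neighbours in both clones and both conditions.

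The difference between the responses to hypoxia was tested as an interaction. For sgXIST7 against sgCtl, 1 of 46 histone genes was called higher (H1-2, log2 difference 1.04 ± 0.22 (SE, adjusted p = 0.0094)) and 0 lower, beside 0.904% and 0.616% of all genes. In all, 17 had an unadjusted p under 0.05, where 26.7% of all genes did, and the median was 0.61. DESeq2 called 2 (H1-2 and H1-3) higher and 0 lower, beside 2.13% and 1.88% of all genes. The H1-2 call was lost in 17 of 26 alternatives, in each by the adjusted p, which ranged from 0.00039 to 0.032. For sgXIST9, edgeR and DESeq2 called 0 higher and 0 lower, beside 0.663% and 0.348% of all genes by edgeR and 1.76% and 1.12% by DESeq2. At an unadjusted p under 0.05, 2 passed, where 21.5% of all genes did, and the median was -0.01. Without sgCtl hypoxia library 3, whose summed histone level was the highest of its group, 9 genes were called higher for sgXIST7, and without the hypoxia libraries 3 of all guides, 11 for sgXIST7 and 1 (H1-3) for sgXIST9.

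The genes around the histone genes were read from lists. In hypoxia, 8.49%, 12.2% and 8.58% of all genes were called lower in sgCtl, sgXIST7 and sgXIST9. The shares called higher were 11.3%, 15.1% and 14.7%. Of 9 genes for the transcription of histone genes, 2, 6 and 5 were called lower in hypoxia in sgCtl, sgXIST7 and sgXIST9 and none higher. CCNE2 and E2F1 of this list are also among the S phase genes below. Of the calls in sgCtl, that of CDC25A was lost in 8 alternatives, among them DESeq2 and median-of-ratios scaling. NPAT, the coactivator that joins histone genes to cyclin E and CDK2, changed by -0.51, -0.76 and -0.66, none called, and CASP8AP2 (FLASH) by -0.45, -1.09 and -0.69, called in sgXIST7 and lost there without hypoxia library 3. CCNE2, a cyclin E, changed by -0.50, -1.89 and -1.82 and E2F1, a transcription factor of S phase genes, by -1.10, -2.503 and -2.02. The difference from the response of sgCtl was called for CCNE2 in both clones (-1.39 in sgXIST7 and -1.32 in sgXIST9) and for E2F1 in sgXIST7 (-1.40). The CCNE2 calls were lost in 11 and 15 of 26 alternatives, and the E2F1 call without sgXIST7 hypoxia library 2. POU2F1, which binds the octamer, had -0.29, -0.24 and -0.18, none called.

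Of 20 genes for the processing of histone mRNA, 19 were tested and 1, 5 and 5 were called lower in the 3 guides, none higher. SLBP itself changed by -0.29, -0.73 and -0.76, none called, from 123.1 ± 11.7 to 101 ± 9.74 CPM in sgCtl. The U7 snRNP proteins LSM10 and LSM11 changed by -0.97, -1.38 and -1.55 and by -0.42, -1.30 and -1.20, and their partner ZNF473 by -0.37, -1.43 and -1.40. All 3 were called in sgXIST7 and sgXIST9 and not in sgCtl, the LSM11 call in sgXIST9 being lost without sgXIST9 hypoxia library 3. CPSF3, the nuclease that cuts the histone precursor, fell in each guide, by -1.33, -1.22 and -1.18. RNU7-1, the U7 RNA, was too low to test. Of 11 genes of histone mRNA decay, 1, 1 and 1 were called lower, near the 8.49%, 12.2% and 8.58% of all genes. In the same comparisons 0, 1 and 0 of them were called higher, beside 11.3%, 15.1% and 14.7%. ERI1, the nuclease that trims the stem-loop, changed by -0.73, -1.43 and -1.24 (called in sgXIST7 and sgXIST9), XRN1 by -1.03, -0.55 and -0.54 (called lower in sgCtl) and the uridyl transferase TUT7 by 0.57, 1.01 and 0.78 (called higher in sgXIST7). The XRN1 call was lost without any 1 of sgCtl normoxia libraries 1 and 2 and hypoxia libraries 1 and 2, and the TUT7 call without sgXIST7 hypoxia library 2 or 3. UPF1, the helicase needed for the decay, had 0.81, 0.28 and 0.46, none called.

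Of 19 histone chaperones and acetylation factors, 5, 7 and 7 were called lower and 1, 1 and 1 higher. The list includes MCM2, which is also among the S phase genes below. ASF1A, which carries new H3 and H4, changed by -1.72, -1.94 and -1.41, the CAF-1 subunits CHAF1A by -1.10, -1.71 and -1.58 and CHAF1B by -1.01, -1.44 and -1.31, and HAT1, which acetylates new H4, by -1.06, -1.17 and -1.24 on the log2 scale. CABIN1, of the HIRA complex, rose by 1.57, 1.96 and 1.46. The CHAF1B call in sgCtl was lost in 11 of 26 alternatives, among them DESeq2 and without sgCtl normoxia library 1 or 3 or hypoxia library 2. The CABIN1 call was lost in sgCtl in 7, among them without any 1 of the normoxia libraries or hypoxia library 3. It was lost in sgXIST9 in 6, among them without any 1 of the normoxia libraries or hypoxia library 1 or 3. NAP1L1, an H2A and H2B chaperone, was higher in the KD clones: its log2 fold change over sgCtl was 1.32 and 1.83 in hypoxia and 1.09 in sgXIST9 in normoxia, all called, and 0.58 in sgXIST7 in normoxia, not called.

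The replication-independent histones, most of them made from polyadenylated mRNAs through the cell cycle, had medians nearer to 0. Of 12 tested, 1, 4 and 4 were called lower and none higher, with medians of -0.61, -0.71 and -0.78. CENPA, the H3 of centromeres, made in G2, changed by -1.91, -2.92 and -3.02 and was the 1 called in sgCtl. H2AZ1 changed by -0.88, -1.09 and -1.15, MACROH2A1 by -0.96, -1.05 and -1.26 and H2AX by -0.82, -1.39 and -1.35, each called in sgXIST7 and sgXIST9. In sgXIST7 the H2AZ1 call was lost without normoxia library 1 or hypoxia library 2, and the MACROH2A1 call without hypoxia library 1. H3-3B, which encodes the H3.3 variant, was at 417 ± 49.7 CPM in sgCtl in normoxia and 392 ± 42.8 CPM in hypoxia, with -0.09, -0.03 and -0.38, none called.

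Genes of S phase and of G2 and mitosis fell with the histone genes. Of 40 S phase genes, 25, 34 and 36 were called lower in sgCtl, sgXIST7 and sgXIST9 and none higher, with medians of -1.23, -1.94 and -1.79. Of 22 G2 and mitosis genes, 20, 22 and 22 were called lower, with medians of -1.31, -1.94 and -2.15. PCNA, the sliding clamp of replication, changed by -1.59, -2.36 and -2.15 and MCM2, of the replicative helicase, by -0.99, -1.37 and -1.25. In sgCtl the histone median (-2.54) lay lower than the S phase median (-1.23), and in sgXIST7 both were close (-1.93 and -1.94). The interaction medians went opposite ways for sgXIST7, 0.61 for the histone genes and -0.72 for the S phase genes, and for sgXIST9 they were -0.01 and -0.56. These are medians with no test. The part that the share of cells in S phase had in the fall of the histone genes was not tested.

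Among the CDK inhibitors, 6 of 7 were tested, and 2, 2 and 2 were called higher in hypoxia, beside 11.3%, 15.1% and 14.7% of all genes. CDKN1A (p21) rose by 2.54, 2.87 and 1.997 and CDKN1B (p27) changed by 0.73, 1.38 and 1.02, called in sgXIST7 and sgXIST9. CDKN2B (p15) changed by 1.98, -0.40 and 0.91 and was called higher in sgCtl only. The difference between sgXIST7 and sgCtl in its response was called (-2.39), and lost in 10 of 26 alternatives. The CDKN1A call in sgXIST9 was lost without either of normoxia libraries 2 and 3 or of hypoxia libraries 1 and 2. The CDKN1B call in sgXIST9 was lost without hypoxia library 3, with median-of-ratios scaling, with only the groups compared and by DESeq2.

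Other RNAs without a poly(A) tail were read from another list. Of 13 listed, 12 were tested, and 2, 4 and 2 were called higher and 0 lower, with medians of 0.63, 0.78 and 0.60. Among all genes, 11.3%, 15.1% and 14.7% were called higher and 8.49%, 12.2% and 8.58% lower. RPPH1, the RNA of RNase P, rose by 1.36, 1.43 and 1.15 and SCARNA2 by 1.35, 1.51 and 1.22. RN7SK, RN7SL1 and RMRP were not called. DESeq2 also called 0 lower. By edgeR, at an unadjusted p under 0.05 in either direction 8, 10 and 10 of the 12 passed, where 56.9%, 63.1% and 60% of all genes did.

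**Figure D5:**
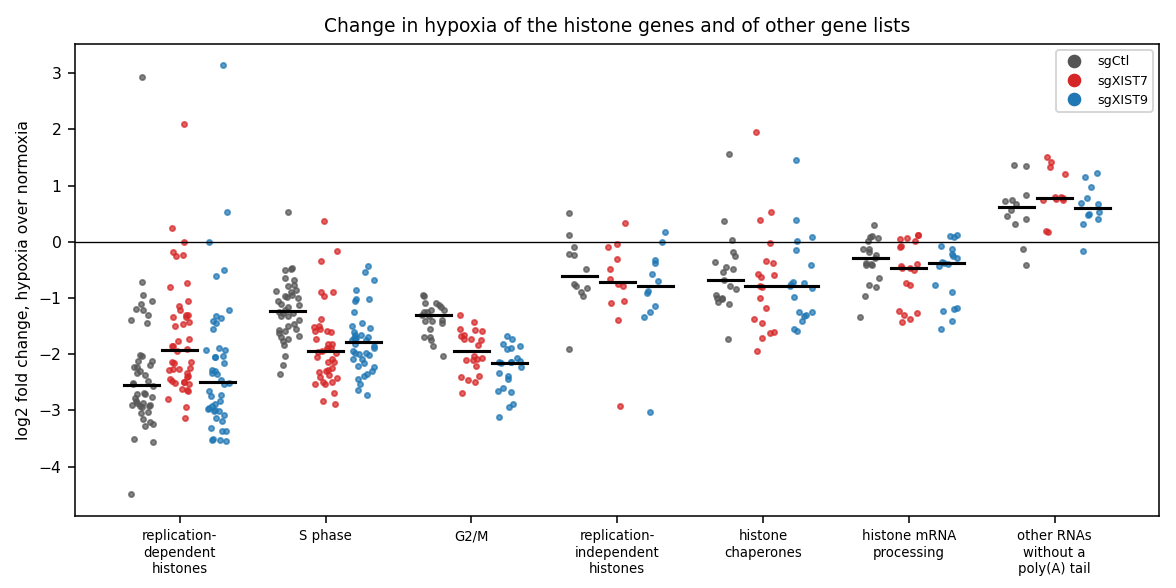
Log2 fold change in hypoxia over normoxia of each tested gene (points) of the replication-dependent histones and 6 other lists, by guide, with the median (black line). The histone genes have the lowest median in sgCtl (-2.54), the S phase and G2/M lists lie below 0 in all guides, and the other RNAs without a tail lie mostly above 0.

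Histone genes of the former HIST3 and HIST4 loci carry symbols that the rule did not take. H2AW, H2BU1 and H4-16 fell as well: H2BU1 was at 192, 178 and 221 CPM in sgCtl in normoxia and 15.6, 19.2 and 38.6 CPM in hypoxia. The log2 fold changes were -3.02, -1.89 and -2.91 for H2BU1, -1.68, -1.03 and -1.66 for H2AW and -1.55, -1.12 and -1.42 for H4-16 in sgCtl, sgXIST7 and sgXIST9, all called lower. The H2AW call in sgXIST7 was lost without sgXIST7 normoxia library 1 or hypoxia library 1 or 2. H3-4, the testis H3, had no more than 9 counts in any library. Of the pseudogenes that the rule left out, H3P6 had the most counts, and was at 18.3, 18.1 and 17.4 CPM in sgCtl in normoxia and 15.8, 17.6 and 11.9 CPM in hypoxia.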

How the data were processed

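RNA was measured in 18 libraries. According to the study's methods, total RNA was depleted of ribosomal RNA and sequenced as stranded paired-end libraries. Trimmomatic trimmed the reads, HISAT2 mapped them to the hg38 build, and featureCounts gave the counts per gene. The settings for strand and for reads that match several places are not given in the sources used here, so reads of near-identical histone genes, of genes on opposite strands and of overlapping genes may be split or lost. The authors deposited raw counts per gene in 1 table with 18 columns, and 2 broken lines of it were left out, which left 28277 genes. Total counts per library ran from 11794375 to 24906936, and 3 counts were worth 0.130 to 0.266 CPM. Floors cover counting error only.

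The histone genes and all gene lists were chosen with earlier results of these data known. Counts were fitted with edgeR 4.0.16 (R 4.3.3, limma 3.58.1) in 1 model of 6 groups, with TMM scaling, filterByExpr (14938 genes kept) and the robust quasi-likelihood test, with Benjamini-Hochberg adjustment over all genes tested. A gene was called at an adjusted p under 0.01 and a log2 fold change beyond 1, the thresholds of the study. DESeq2 1.42.0 was an alternative, beside other scalings, filters, thresholds and samples, a replicate block, and leaving out libraries. The fit was tested on simulated data. Values in every library were given for the 8 histone genes with the highest mean CPM per kb, for up to 5 histone genes called in each direction of a comparison with the largest change, and for the H1 genes tested. From the other lists, only some of the called genes were named, together with SLBP, NPAT, LSM10, LSM11, ZNF473, CASP8AP2, ERI1, PCNA, MCM2, CCNE2 and E2F1. POU2F1, UPF1, H3-3B, RN7SK, RN7SL1, RMRP, the neighbours along chromosome 6 and the histone genes outside the rule were named after their values were seen. The labels number the libraries of each group from 1 to 3 and do not say what a number shares. Deviations of same-numbered libraries from their group means correlated above 0.1 in every pair only between sgCtl and sgXIST7 in normoxia (r 0.223 to 0.493) and between sgCtl and sgXIST9 in hypoxia (0.234 to 0.593). The hypoxia libraries 3 of the 3 guides correlated with one another (r 0.416, 0.593 and 0.542). With hypoxia libraries 1 and 2 of the other guides their r ran from -0.630 to 0.0818. What the libraries 3 share was not tested. Stem-loops and 50-base windows were read from the hg38 genome, and promoters from RefSeq (GRCh38.p14), by symbol, for 61 of 66 genes. Python 3.11.15, pandas 2.3.3 and matplotlib 3.10.9 were used for tables and plots.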

Additional observations from a re-analysis of the deposited data

Results flagged for a closer look

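The response to hypoxia differed between a KD clone and sgCtl by the interaction test (edgeR's quasi-likelihood test, Benjamini-Hochberg adjustment over all genes) for 1 histone gene and for 3 genes of the lists. H1-2 differed by 1.04 on the log2 scale in sgXIST7, and was called lower in hypoxia in sgCtl and not in sgXIST7. CCNE2 differed by -1.39 in sgXIST7 and by -1.32 in sgXIST9. E2F1 differed by -1.40 in sgXIST7. CDKN2B differed by -2.39 in sgXIST7, and was called higher in hypoxia in sgCtl and not in sgXIST7. Of 26 alternatives, the H1-2 call was lost in 17, the CCNE2 calls in 11 and 15 and the CDKN2B call in 10. The E2F1 call was lost in 1, without sgXIST7 hypoxia library 2. Among all genes, 0.904% were called higher and 0.616% lower for sgXIST7, and 0.663% and 0.348% for sgXIST9. The cause of these differences was not tested, and clone and guide cannot be told apart.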

How the results depend on the processing

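Of 531 comparisons of a count of called histone genes or of a summed level with its alternative, 481 stayed within 1.5 times or within 1 SD. The single histone gene called higher in hypoxia, H4C4, dropped to 0 in the 3 guides with a mean of at least 1 CPM, and to 0 in sgCtl when only the groups compared were fitted. With only those groups, the count called lower in sgXIST9 in normoxia was 0, and the counts called higher in hypoxia were 5 in sgXIST7 and 2 in sgXIST9. At an adjusted p under 0.05, and also with the replicate block, 1 gene (H1-5) was called lower in hypoxia in sgXIST7 and in sgXIST9. The block changed no other count by over 1.5 times, and the numbers pair the libraries in some groups only. Without the hypoxia libraries 3, 7 genes were called higher in sgXIST9 in hypoxia. The interaction for sgXIST7 gave 2 genes at an adjusted p under 0.05 and by DESeq2, 0 with median-of-ratios scaling and with only the groups compared, and 11 without the hypoxia libraries 3, where that for sgXIST9 gave 1. On the plain library size the summed level left in sgXIST7 was 25.1%. Leaving out 1 library at a time, the genes called lower in hypoxia numbered 39 to 41 in sgCtl, 34 to 37 in sgXIST7 and 39 to 40 in sgXIST9, and those called higher 0 to 1 in sgCtl and in sgXIST7. The genes called higher in sgXIST7 numbered 2 to 4 in normoxia, with 2 without sgCtl normoxia library 2 or 3 or sgXIST7 normoxia library 1. In hypoxia they numbered 6 to 14 in sgXIST7 and 3 to 6 in sgXIST9, and those called lower 0 to 1 in each. The interaction for sgXIST7 gave 0 to 9, with 9 without sgCtl hypoxia library 3. The summed level left ran from 18.5% to 22.5% in sgCtl, 27.3% to 31.9% in sgXIST7 and 16.1% to 21.2% in sgXIST9. No call of a named gene changed sign. The cause of these changes was not tested.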
